A study of Polistes metricus with 16 samples.

Results

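RNA from whole heads of 16 single larvae of Polistes metricus, a paper wasp, all female and in instar 5, was compared between 8 larvae taken from field nests and 8 larvae from nests kept in a laboratory. All 16 larvae of the series entered this comparison, which averaged the 2 groups on each side. The field side held 4 worker-reared larvae, collected in late summer of 2010 and queen-destined, and 4 foundress-reared larvae, collected in late spring of 2010 and worker-destined, both from a site in Iowa. The laboratory side held 4 larvae of nests fed ad libitum, with a worm every 1 day, and 4 larvae of nests on restricted protein, with a worm every 3 days. Those nests had been brought in from North Carolina in 2009. Year, geographic origin, housing and food therefore differed together between the sides, and their parts in any difference cannot be told apart. The labels do not say how many nests the larvae came from, so the p-values rest on the variation among single larvae, which may share a nest. The labels give each larva a code and no replicate number; replicate numbers here only name larvae, in order of deposit within a group.

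Paper wasps are primitively social: queens and workers look alike, and the path a female larva takes is influenced by how she is fed and by the season. Larvae of the last instar are the stage at which reserves for metamorphosis are stored and silk for the cocoon is made, and the larval head holds the brain, the muscles of the mouthparts, cuticle and the outlet of the silk glands. A wild nest is provisioned with prey caught outside, whereas a laboratory nest receives only what is offered. In whole heads, fewer cells of a type and less RNA per cell cannot be told apart. The measured units are transcripts of an assembly, which the table identifies by number only (PmetTSAr1.1 and 6 digits), so no gene, pathway or cell type could be named, no marker of the tissue could be read and no sequence is shown.

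Each library held between 28359372 and 37626473 counts, and 36337 of 74517 transcripts had enough counts to be tested. Total counts averaged 32631733 ± 2955186 in field and 31312420 ± 1729307 in laboratory larvae (SD, n = 8 each). Transcripts with at least 1 count numbered 56825 ± 2625 in field and 58455 ± 1655 in laboratory larvae. The 10 most abundant transcripts held 13.7% ± 7.94 of the counts of a field library and 14.1% ± 6.68 of a laboratory library. None of 5 such library measures differed between the sides beyond its spread (two-sided exact permutation tests, each adjusted p 0.744 or above). The library of restricted replicate 4 stood apart from the others of its group. It detected 62026 transcripts, where the other 3 larvae of its group detected 57586 to 58253, and its score on the first principal component was 55.9, against -40.8 to -24.8 in those larvae. Field larvae had scores from -61.3 to 75.1 on this component and ad libitum larvae from -45.6 to 36.9. The score was thus the highest on the laboratory side but inside the range of field larvae. Its number of detected transcripts was the highest of all 16 libraries, where field larvae reached 59709 at most. The number of calls and the readings in separate libraries are given with and without restricted replicate 4.

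In field larvae 356 transcripts, 0.98% of those tested, differed in level from laboratory larvae at an adjusted p under 0.05 (edgeR quasi-likelihood test, Benjamini-Hochberg adjustment over 36337 transcripts). Of these, 106 (0.292% of those tested) were higher and 250 (0.688%) were lower in field larvae. The median fitted fold was 2.71 among the higher and 2.83 among the lower transcripts, against 1.17 over all tested transcripts taken in either direction. A more than 4-fold difference was reached by 34 of the higher and 75 of the lower transcripts. An unadjusted p under 0.05 was found for 5663 transcripts (15.6%), 2512 higher and 3151 lower. The tail of the called list lay close to the threshold, with 14 transcripts sharing an adjusted p of 0.0499997.

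The number of calls depended strongly on single larvae. Without restricted replicate 4, 2277 transcripts (6.13%) were called (1195 higher and 1082 lower in field larvae), and all 356 were among them. Transcripts lower in field larvae made up 70.2% of calls with all larvae and 47.5% without that larva. Counts also fell by more than 1.5 times without restricted replicate 2 (193) or 1 (215), ad libitum replicate 1 (201), 2 (222) or 4 (223), worker-reared replicate 4 (208), or foundress-reared replicate 2 (211) or 4 (212). In each of the 16 fits that left out 1 larva, all 356 transcripts had the same sign as in the full fit, and from 190 to 356 of them were still called. The transcripts were chosen in the full fit, and these fits reuse all of its larvae but 1. Their signs were thus nearly fixed in advance, and nothing is read from them. DESeq2 called 1155 transcripts (3.18%) and limma voom 240 (0.66%). The levels of the 8 field and 8 laboratory larvae did not overlap in 152 of the 356 transcripts (42.7%), 55 higher and 97 lower in field larvae. Among all tested transcripts 0.482% had no overlap, 0.182% higher and 0.3% lower. The calls were made on these same larvae, so the larger share among them was favoured by the choice and nothing is read from it.

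**Figure D1:**
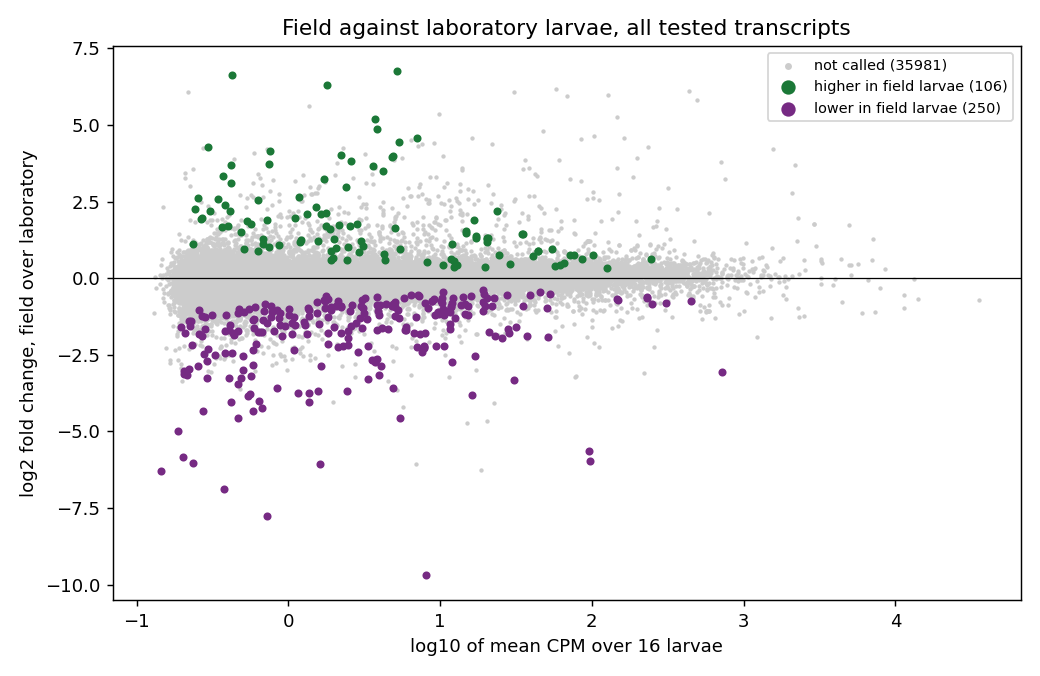
Log2 fold change of field over laboratory larvae (vertical axis) against the log10 of mean CPM over 16 larvae (horizontal axis) for 36337 transcripts. Green points are the 106 transcripts called higher and purple points the 250 called lower in field larvae; grey points were not called. Called transcripts reach a mean of 722 CPM and lie at both large and small fold changes.

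The transcript with the smallest p was PmetTSAr1.1-014184, which was almost absent from laboratory larvae. It measured 6.96, 5.70, 8.60 and 8.50 CPM (counts scaled to library size) in the worker-reared and 13.5, 5.53, 5.55 and 3.27 CPM in the foundress-reared larvae. The ad libitum larvae had 0.297, 0.242, 0.0843 and 0.130 CPM and the restricted larvae 0.292, 0.185, 0.0892 and 0.204 CPM. The lowest field larva lay more than 10 times above the highest laboratory larva, and the fitted fold was 37.0 (edgeR adjusted p = 4.09e-06, log2 fold change 5.21 with an SE of 0.35). The next identifier, PmetTSAr1.1-014183, showed the same order, with a lowest, median and highest level of 6.19, 12.7 and 23.2 CPM in field and 0.296, 0.382 and 1.18 CPM in laboratory larvae (edgeR adjusted p = 2.43e-05, log2 fold change 4.58 with an SE of 0.38). Within groups the log2 levels of this pair correlated at 0.458 over 16 larvae.

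Smaller differences also occurred without overlap. PmetTSAr1.1-027710 lay between 2.36 and 3.24 CPM in field larvae (median 2.88) and between 0.840 and 1.46 CPM in laboratory larvae (median 1.19), a fitted 2.44-fold difference (edgeR adjusted p = 4.38e-05). PmetTSAr1.1-030137 measured 1.5 to 2.12 CPM in field (median 1.70) and 0.242 to 0.767 CPM in laboratory larvae (median 0.427), a 3.87-fold difference. Neither transcript overlapped between the sides. The most abundant of the higher transcripts without overlap differed by less than 2-fold. PmetTSAr1.1-002428 measured 240 to 346 CPM in field (median 310) and 152 to 234 CPM in laboratory larvae (median 198), and the edgeR adjusted p was 0.0326 (log2 fold change 0.63 with an SE of 0.13); its call was lost in 15 of 28 alternative settings. PmetTSAr1.1-015324 averaged 96.3 ± 15.8 CPM in field and 57.2 ± 9.53 CPM in laboratory larvae, and PmetTSAr1.1-001693 averaged 90.1 ± 16.8 and 53.7 ± 8.37 CPM in the same order (SD, n = 8 each).

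Among higher transcripts without overlap and with a mean of at least 1 CPM, the pair with the largest fitted differences varied widely inside the field groups. PmetTSAr1.1-009394 measured 9.05, 6.53, 29.0 and 0.991 CPM in worker-reared and 0.490, 10.1, 20.9 and 5.50 CPM in foundress-reared larvae, against 0 to 0.209 CPM in the 8 laboratory larvae (edgeR adjusted p = 0.0018, log2 fold change 6.76 with an SE of 0.89). PmetTSAr1.1-009713 followed it from larva to larva, at 0.138 to 9.81 CPM in field and 0 to 0.136 CPM in laboratory larvae (edgeR adjusted p = 0.00679, log2 fold change 6.30 with an SE of 1.00). Its lowest field larva had 5 counts and its highest laboratory larva 6, so these larvae were apart only after scaling to library size. Within groups the log2 levels of the 2 transcripts correlated at 0.915 over 16 larvae. In both, worker-reared replicate 3 and foundress-reared replicate 3 were the highest field larvae. Both calls were lost with limma voom (adjusted p = 0.151 and 0.149).

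**Figure D2:**
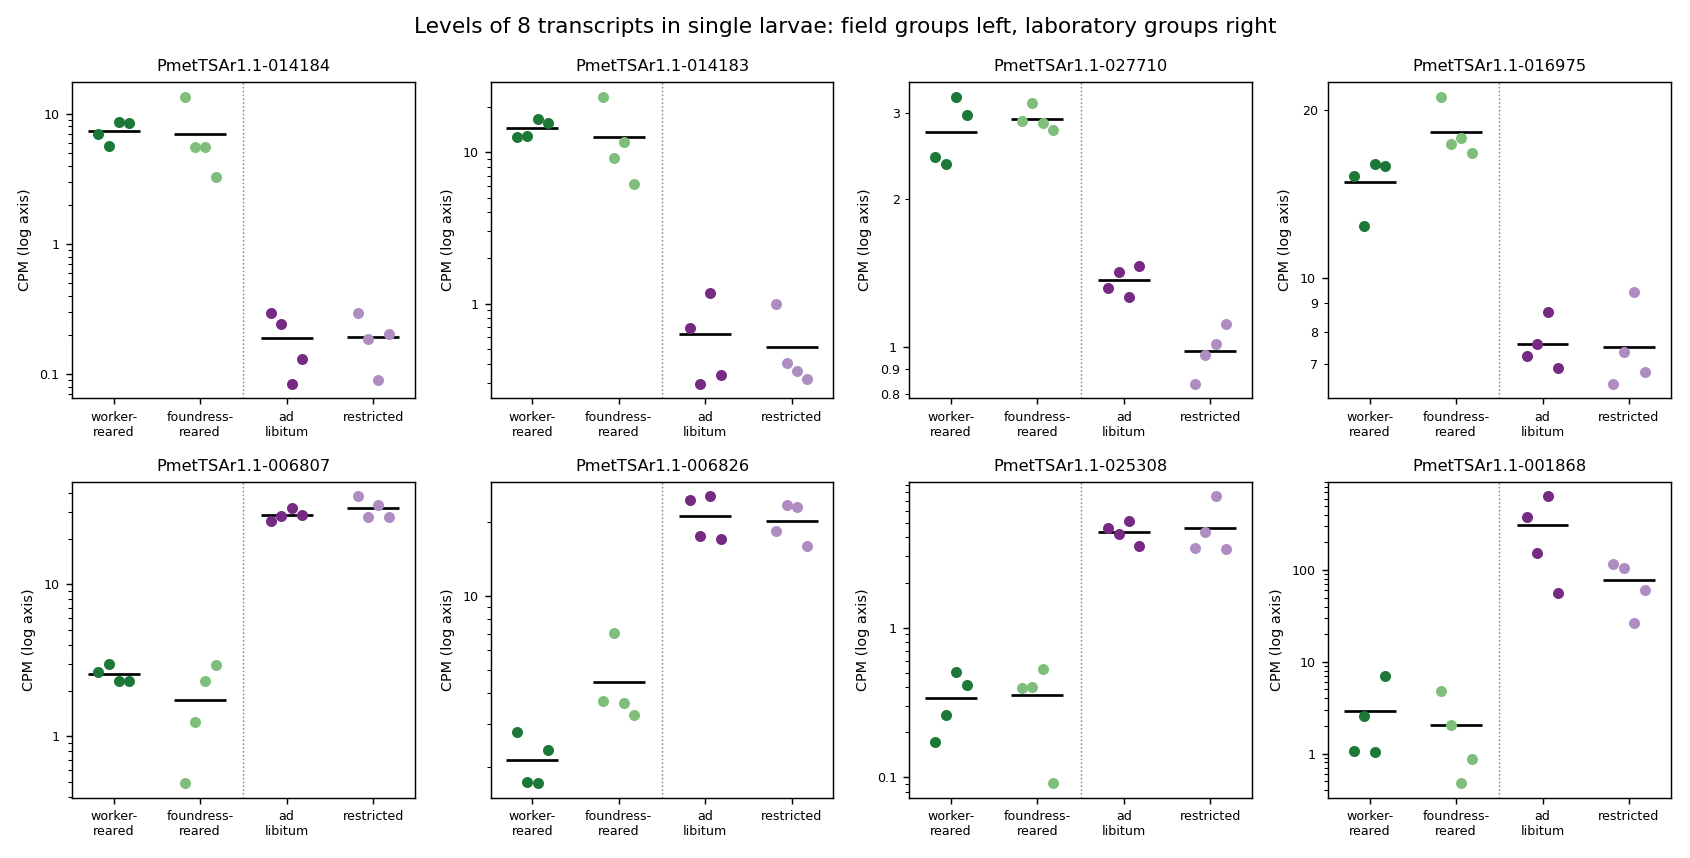
CPM on log axes in each of 16 larvae for 8 called transcripts, with the worker-reared and foundress-reared groups left of the dotted line and the ad libitum and restricted groups right of it; points are larvae and bars are group means. In the upper row each field larva lies above each laboratory larva, and in the lower row each lies below.

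Among transcripts lower in field larvae, PmetTSAr1.1-006807 had the smallest p. Worker-reared larvae had 2.66, 3.004, 2.32 and 2.31 CPM and foundress-reared larvae 0.490, 1.24, 2.30 and 2.96 CPM. Ad libitum larvae had 26.2, 28.2, 31.7 and 28.5 CPM and restricted larvae 37.9, 27.9, 33.3 and 27.8 CPM. The laboratory larvae were close to one another, the field larvae lay far below them, and the fitted fold was 14.2 (edgeR adjusted p = 4.09e-06, log2 fold change -3.82 with an SE of 0.26). PmetTSAr1.1-006826 measured 1.71 to 7.06 CPM in field (median 3.03) and 16.0 to 25.4 CPM in laboratory larvae (median 20.7), and the edgeR adjusted p was 4.09e-06 (log2 fold change -2.74 with an SE of 0.19). Its neighbour in number, PmetTSAr1.1-006827, was likewise lower in field larvae, at 1.71 to 8.09 CPM against 13 to 22.9 CPM in laboratory larvae, and correlated with it at 0.907 within groups.

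PmetTSAr1.1-025308 and PmetTSAr1.1-010228 were scarce in every field larva. The first measured 0.0910 to 0.531 CPM in field (median 0.397) and 3.33 to 7.52 CPM in laboratory larvae (median 4.26), a 12.7-fold difference. The second measured 0.0550 to 0.736 CPM in field (median 0.470) and 4.97 to 24.0 CPM in laboratory larvae (median 8.05), a 23.8-fold difference (edgeR adjusted p = 3.06e-05). PmetTSAr1.1-010347 was the only called transcript under 0.5 CPM in every field larva and over 1 CPM in every laboratory larva, and PmetTSAr1.1-014184 the only one with the reverse pattern; these limits were chosen after the values were seen.

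Among lower transcripts without overlap and with a mean of at least 1 CPM, the largest fitted differences belonged to a pair of consecutive identifiers. PmetTSAr1.1-001868 measured 1.06, 2.56, 1.05 and 7.02 CPM in worker-reared and 4.76, 2.05, 0.472 and 0.864 CPM in foundress-reared larvae. It measured 382, 152, 633 and 56.1 CPM in ad libitum and 117, 105, 26.2 and 59.8 CPM in restricted larvae. The lowest laboratory larva thus still lay above the highest field larva, while laboratory larvae differed among themselves by more than 20 times (edgeR adjusted p = 0.000969, log2 fold change -5.98 with an SE of 0.73). PmetTSAr1.1-001867 was likewise without overlap, at 0.649 to 8.80 CPM in field and 30.3 to 605 CPM in laboratory larvae, and correlated with it at 0.987 within groups. In this pair the call held in each of 28 alternative settings. Those settings reuse the libraries in which the pair was chosen, so nothing is read from this.

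PmetTSAr1.1-014413 had the largest fitted difference of any called transcript and was chosen for that after its values were seen. Field larvae had from 0 to 0.0366 CPM. Ad libitum larvae had 21.2, 11.2, 0 and 28.7 CPM and restricted larvae 18.1, 3.95, 14.1 and 31.1 CPM, so ad libitum replicate 3 was listed at 0 like field larvae while the other 7 laboratory larvae were not. PmetTSAr1.1-014943, the called transcript with the highest mean CPM, was also picked out after its values were seen. Its lowest, median and highest levels were 32.8, 113 and 379 CPM in field and 231, 998 and 3370 CPM in laboratory larvae, overlapping between the sides (log2 fold change -3.05, edgeR adjusted p = 0.0123).

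No transcript had 0 counts in all 8 larvae of one side and at least 10 counts in every larva of the other. Counts of 0 in all 8 field larvae and at least 1 in every laboratory larva were found for 4 transcripts, and the reverse for 2. Of those at 0 in field larvae, PmetTSAr1.1-060231 had 64 counts in the laboratory larvae together (2 to 17 per larva) and PmetTSAr1.1-048260 had 78 (1 to 17 per larva). Against a floor of 3 counts over the 8 field libraries, they were at least 21.3-fold and at least 26-fold lower in field larvae. PmetTSAr1.1-041011 had 16 counts in laboratory larvae together. Of the reverse kind, PmetTSAr1.1-040069 had 47 counts in field larvae together, at least 15.7-fold higher than the same floor over the laboratory libraries, and PmetTSAr1.1-055989 had 12. PmetTSAr1.1-011331, next by the same rule, had 7 counts in field larvae and 0 in laboratory larvae. Most of these lie under the filter and were not tested; PmetTSAr1.1-048260 was, and was called (edgeR adjusted p = 0.0142). These bounds cover counting error only.

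The 2 most abundant transcripts of the table did not differ detectably. PmetTSAr1.1-000002 ranged from 302 to 163270 CPM in field larvae and from 3181 to 135470 CPM in laboratory larvae (edgeR adjusted p = 0.735, log2 fold change -0.71 with an SE of 0.87). PmetTSAr1.1-000005 ranged from 126 to 64736 CPM and from 1383 to 54490 CPM in the same order (edgeR adjusted p = 0.743). The spread inside each side exceeded 10-fold for both, so only a very large difference would have been detectable.

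Called transcripts were often neighbours in number. In total 68 of the 356 (19.1%) stood in 24 runs of consecutive identifiers called in the same direction, 3 runs higher and 21 lower in field larvae, and within-group correlations exceeded 0.9 throughout 8 of the runs. Among tested transcripts next in number to a called one, 12.7% were themselves called. Whether neighbours are isoforms, alleles or paralogs that share reads is not given in the sources used here, so the 356 transcripts may stand for fewer genes. Runs and single transcripts together made 312 separate entries.

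Neighbours moved in opposite directions in 2 of 46 pairs with both called. CPM is not per length, so sums and shares within a pair are compared between larvae only. Reads shared by the members of a pair, if any, may have been counted in both. PmetTSAr1.1-016974 averaged 7.37 ± 1.23 CPM in field and 15.9 ± 0.935 CPM in laboratory larvae, and was 2.17-fold lower in field larvae (edgeR adjusted p = 2.43e-05). PmetTSAr1.1-016975 averaged 16.5 ± 2.47 CPM in field and 7.56 ± 1.01 CPM in laboratory larvae (SD, n = 8 each), and was 2.18-fold higher in field larvae (edgeR adjusted p = 5.43e-05). Both calls held in each of 28 alternative settings, which reuse the libraries that chose them, so nothing is read from this. The share of PmetTSAr1.1-016974 in the sum of the pair was 27.4% to 35.5% in field and 63.9% to 70.2% in laboratory larvae. The sum itself was 23.9 ± 3.48 CPM in field and 23.5 ± 1.68 CPM in laboratory larvae (two-sided exact permutation test, p = 0.768, adjusted p = 0.768 over 2 pairs). The pair was chosen for opposite calls in these same larvae, which favours offsetting differences, so no unchanged total is concluded.

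The other such pair was PmetTSAr1.1-005076, lower in field larvae (log2 fold change -0.65, SE 0.08), and PmetTSAr1.1-005077, higher in field larvae (edgeR adjusted p = 0.0459, log2 fold change 0.36 with an SE of 0.08). The first made up 37.8% to 41.8% of their sum in field and 55.8% to 59.9% in laboratory larvae. Their sum was 23.4 ± 2.05 CPM in field and 25.7 ± 2.54 CPM in laboratory larvae (two-sided exact permutation test, p = 0.0648, adjusted p = 0.13). The pairs were picked out after their values were seen and for their opposite calls, so the tests of their sums cannot show an unchanged total. Opposite signs were found in 44.7% of 30209 pairs of consecutive tested identifiers, and in 270 of the 1008 pairs (26.8%) with an unadjusted p under 0.05 in both transcripts.

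**Figure D3:**
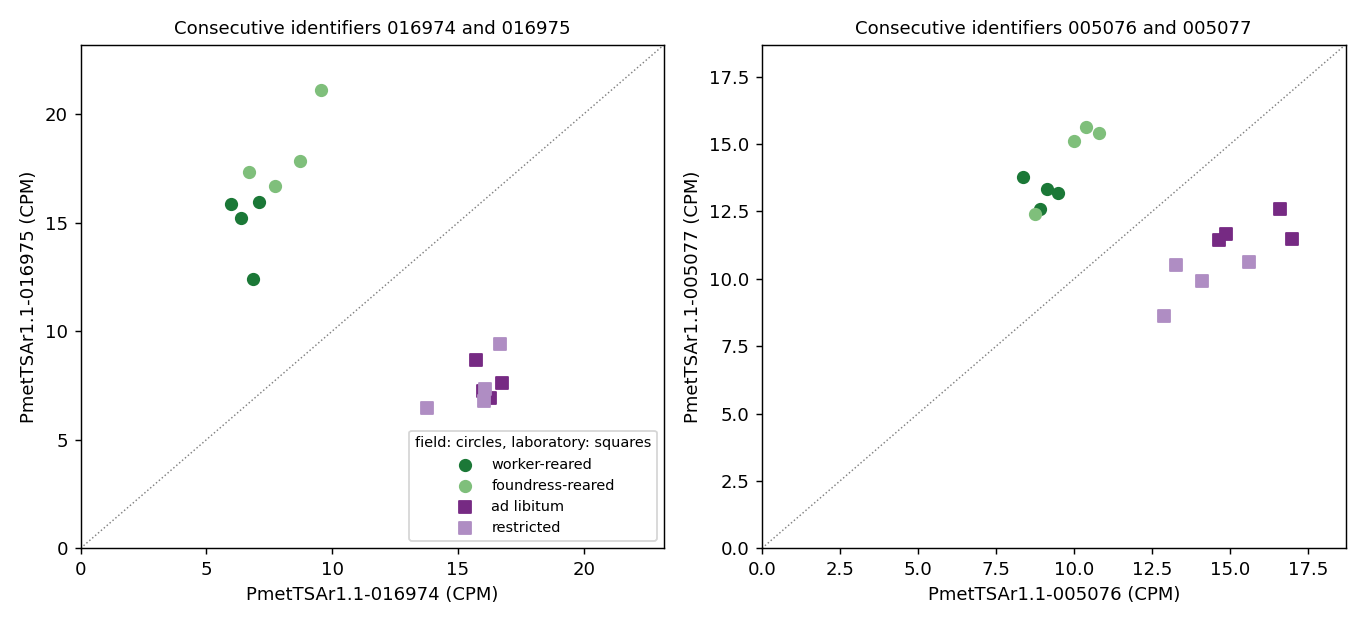
CPM of the second transcript (vertical axis) against the first (horizontal axis) of each oppositely called pair of consecutive identifiers, in 16 larvae; circles are field larvae, squares are laboratory larvae and the dotted line marks equal CPM. In both pairs the 8 field larvae lie above the line and the 8 laboratory larvae below it.

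Beyond neighbours, 57 called transcripts fell into 6 groups of at least 4 whose log2 levels, less the group means, were linked by correlations over 0.9 across 16 larvae. These groups were formed from the same data and are described without a test. The largest held 17 transcripts, all lower in field larvae. Its mean log2 CPM was 1.58 to 2.73 in worker-reared, 1.61 to 1.78 in foundress-reared and 2.48 to 3.19 in ad libitum larvae. Restricted larvae had 4.34, 4.69, 5.42 and 2.48, so that 3 of them were far above all other larvae and restricted replicate 4 lay with the ad libitum larvae, below the highest worker-reared larva. The most abundant of the 17 was PmetTSAr1.1-015942, with a mean of 17.2 CPM in field and 85.5 CPM in laboratory larvae.

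The second group, of 13 transcripts including PmetTSAr1.1-001877 and PmetTSAr1.1-012865, was lower in field larvae by a different pattern. Its mean log2 CPM was 0.402 to 2.32 in field and 2.79 to 4.31 in laboratory larvae, with ad libitum (mean 3.26) and restricted larvae (mean 3.45) close together. The third group was the longest run, the 12 consecutive transcripts from PmetTSAr1.1-012522 to PmetTSAr1.1-012533, and the only one of the 6 that was higher in field larvae. Their summed level was 345 to 523 CPM in field larvae (median 423) and 71.7 to 279 CPM in laboratory larvae (median 181), and restricted replicate 4 was the lowest of all. How reads shared by transcripts were assigned is not stated, so this sum may count some reads more than once. The log2 fold changes of the 12 ran from 0.88 to 1.54, and the correlations within groups from 0.818 to 0.997.

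The fourth group held 7 abundant transcripts, PmetTSAr1.1-014854 to PmetTSAr1.1-014856 and PmetTSAr1.1-014860 to PmetTSAr1.1-014863. Of these, PmetTSAr1.1-014861 measured 270 to 418 CPM in field (median 339) and 457 to 828 CPM in laboratory larvae (median 518), and the edgeR adjusted p was 0.0135 (log2 fold change -0.75 with an SE of 0.14). PmetTSAr1.1-014860 and PmetTSAr1.1-014854 were lower in field larvae by 1.74-fold and 1.80-fold. The remaining 2 groups had 4 transcripts each and were also lower in field larvae.

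**Figure D4:**
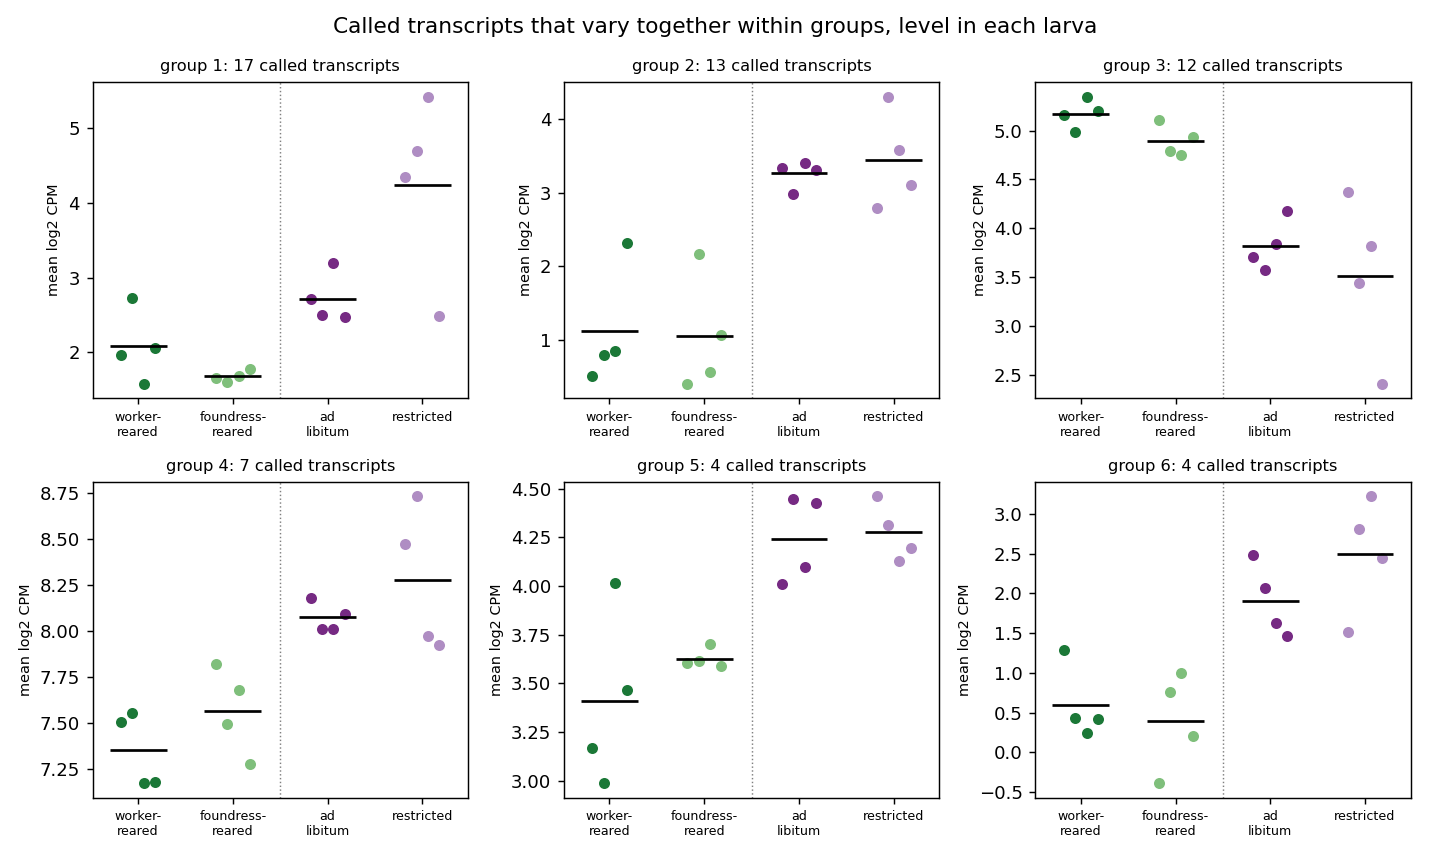
Mean log2 CPM of each of the 6 sets of co-varying called transcripts in single larvae (points) with group means (bars), field groups left of the dotted line and laboratory groups right of it. The set of 17 is highest in 3 restricted larvae at 4.34 to 5.42, and the set of 12 is the one set that is higher in field larvae.

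Called transcripts were compared with the differences inside each side, which the field and laboratory contrast does not use. The contrasts do share one estimate of each transcript's spread, and that estimate entered the calls. The shares below are therefore a description, and nothing is concluded from their excess over all tested transcripts. Of the 356, 73 (20.5%) had an unadjusted p under 0.05 between worker-reared and foundress-reared larvae, where 16.1% of all tested transcripts did. For ad libitum against restricted larvae the share was 89 of 356 (25.0%), where 13.6% of all tested transcripts did. Over all tested transcripts the median absolute log2 fold change was 0.22 between field and laboratory larvae, 0.32 for caste and 0.31 for nutrition. The first compared 8 larvae with 8, whereas caste and nutrition each compared 4 with 4. Averages over more larvae carry less noise, so these medians cannot rank the size of the differences. Among the called transcripts these medians were 1.48, 0.35 and 0.45, of which 1.48 comes from the contrast that chose them. The 4 differences between a field group mean and a laboratory group mean had 1 sign in 346 of the called transcripts and in 32.8% of all tested transcripts; the calls were made on the average of these differences, so nothing is read from this count.

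The caste contrast called 16 transcripts (0.044%) with edgeR, and 4 of them were also called between field and laboratory larvae. PmetTSAr1.1-013766 measured 1.12, 1.42, 1.15 and 0.688 CPM in worker-reared and 13.2, 6.33, 6.70 and 7.82 CPM in foundress-reared larvae, against 0.590 to 1.28 CPM in ad libitum and 0.725 to 1.28 CPM in restricted larvae. The foundress-reared larvae alone were high, and worker-reared larvae overlapped with laboratory larvae. PmetTSAr1.1-014756 had the same order of groups. Worker-reared larvae had 0 to 0.165 CPM, foundress-reared larvae had 0.883 to 2.64 CPM and laboratory larvae had 0 to 0.0731 CPM, and its call was lost in 9 of 27 alternative settings. PmetTSAr1.1-008776 differed inside the sides as much as between them, at 14.6 to 18.2 CPM in worker-reared, 9.01 to 10.2 CPM in foundress-reared, 13.7 to 17.0 CPM in ad libitum and 20.3 to 26.5 CPM in restricted larvae (field over laboratory edgeR adjusted p = 0.00288, log2 fold change -0.58 with an SE of 0.08). Its call was lost when each side was fitted with 1 mean (edgeR adjusted p = 0.204) and against a 1.5-fold difference. The call of PmetTSAr1.1-013766 was likewise lost with 1 mean per side (edgeR adjusted p = 0.0631). The nutrition contrast gave 0 calls with edgeR (0% of those tested), while 4949 had an unadjusted p under 0.05; no other tool was run on that contrast.

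The difference was then read in libraries that had no part in choosing the transcripts. In a fit of 1 field group and 1 laboratory group, the 200 transcripts of smallest p in each direction were taken and their log2 fold changes read in a fit of the other field and the other laboratory group, with no library shared. Ranked in foundress-reared over ad libitum larvae, 149 of 186 measured higher transcripts were also higher in worker-reared over restricted larvae (80.1%, median log2 fold change 0.42), and 159 of 193 lower transcripts were also lower (82.4%, median -0.68). Over all transcripts ranked higher or lower in the first fit, the same shares were 51.7% and 54.0%. Ranked in worker-reared over restricted larvae, the shares in foundress-reared over ad libitum larvae were 65.4% of 188 and 76.7% of 167.

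The other way of pairing the groups gave less repetition. Ranked in worker-reared over ad libitum larvae, 93 of 175 higher transcripts (53.1%) and 118 of 191 lower transcripts (61.8%) kept their sign in foundress-reared over restricted larvae. Ranked in foundress-reared over restricted larvae, the shares in worker-reared over ad libitum larvae were 46.3% of 190 and 58.2% of 182. Over all transcripts these shares were 46.8% to 48.1%. Without restricted replicate 4 these last 2 shares were 60.6% of 198 and 38.8% of 183, while the other 6 shares were 55.6% to 80.3%. The difference between the pairings was not tested. The number of transcripts also mattered: with 100 in place of 200 per direction, the shares ranged from 55.4% to 91.6% over the 8 readings, and with 400 from 37.7% to 76.3%.

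Single larvae were placed in the same way. For each larva, the 200 transcripts of smallest p in each direction were taken from a fit of the other 15, and the share nearer to the mean of the larva's own side was counted. It was 65.0% to 86.0% in the 8 field larvae and 43.0% to 90.5% in the 8 laboratory larvae. Restricted replicate 4 was the one larva under 50%, and the other 7 laboratory larvae had 68.0% to 90.5%. Over all tested transcripts the share was 43.5% to 59.2% in field larvae and 38.6% to 66.2% in laboratory larvae. Scaling factors for this measure came from all 16 libraries.

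**Figure D5:**
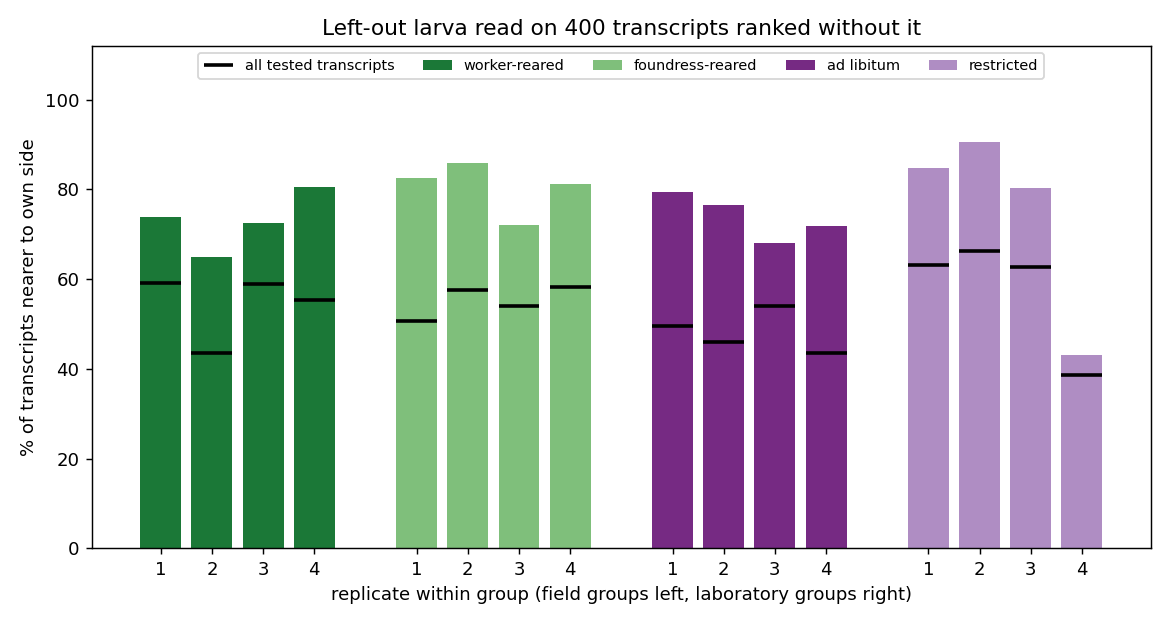
Percent of 400 transcripts, ranked without the larva shown, on which that larva lay nearer to the mean of its own side; bars are single larvae by replicate number, field groups at the left and laboratory groups at the right, and black lines give the same percent over all tested transcripts. Restricted replicate 4, at 43.0%, is the one bar under 50%.

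The side a larva came from accounted for little of the overall variation. The first principal component of the 500 most variable transcripts held 45.7% of their variance, and 0.811% of its scores' variance lay between the sides (two-sided exact permutation test, p = 0.738, adjusted p = 0.738 over 5 components). Of the first 5 components, the third (12.5% of the variance) had the largest share of its scores' variance between the sides, 26.5%, which did not pass after adjustment (exact permutation p = 0.044, adjusted p = 0.22). When all tested transcripts were used, the second component held 14.8% of the variance. Its scores were -9.91 to 144 in field and -73.2 to 10.3 in laboratory larvae, with 38.3% of its variance between the sides (exact permutation p = 0.00295, adjusted p = 0.0148). On it, worker-reared larvae (-9.91 to 4.69) lay inside the range of ad libitum larvae (-16.8 to 10.3). Foundress-reared larvae had 13.5 to 144 and restricted larvae -73.2 to -18.5, so most of the separation lay between these 2 groups. Mean correlations of log2 CPM were 0.935 among field, 0.939 among laboratory and 0.933 between field and laboratory larvae.

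Called transcripts mostly lay off the axis of largest variation inside the groups. The first component of the levels less their group means correlated above 0.7 in size with 5.62% of the called transcripts and with 26.4% of all tested transcripts. The spread inside groups enters the test that made the calls, so these shares are a description. The spread between larvae of a group was similar on both sides: the median SD of log2 CPM was 0.337 in worker-reared, 0.41 in foundress-reared, 0.344 in ad libitum and 0.454 in restricted larvae, and 46.0% of transcripts had the larger pooled SD in field larvae. The share of transcripts called was 0.902% under 1 CPM, 1.14% from 1 to 10 CPM, 0.906% from 10 to 100 CPM and 0.652% above 100 CPM, and lower transcripts outnumbered higher ones in each of the 4 ranges.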

How the data were processed

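The table holds counts per assembled transcript for 16 single-larva RNA-seq libraries, as deposited by the authors. Bowtie2 and eXpress are named, without versions, in the submitters' processing notes; the sources used here do not state strand use or how reads shared by transcripts were assigned. Column names equal the larva codes in the labels' descriptions; the titles carry the same codes except for ad libitum replicate 1, whose title has a zero in place of the letter O.

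From these counts, transcripts were filtered with filterByExpr by group, scaled by TMM and fitted with 4 group means in edgeR 4.0.16 (R 4.3.3; robust quasi-likelihood, 12 residual degrees of freedom); the contrast averaged the 2 groups of each side. Each SE was obtained as the size of the log2 fold change over the root of its F statistic. CPM uses TMM-scaled library sizes and is not per length, so levels of different transcripts are not comparable. Log2 CPM used a prior count of 2. Named transcripts were, per direction and among called transcripts without overlap, the 5 of smallest p, the 3 of highest mean CPM and the 3 of largest fold with a mean of at least 1 CPM; up to 2 per direction also called for caste; 3 per side at 0 counts throughout that side; and the 2 most abundant. Library measures, component scores and pair sums were compared by two-sided exact permutation tests over 12870 assignments. DESeq2 1.42.0, limma 3.58.1 and other filters and scalings were alternatives. Comparisons and naming rules were chosen with earlier results of these data known. Planned gene lists and markers were not run, since identifiers carry no gene names. The edgeR contrast was also run on simulated counts. These were drawn independently for each transcript and without an outlying library, so that run does not cover either feature of the real libraries. Depth allows a floor of 3 counts where a side has 0.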

Additional observations from a re-analysis of the deposited data

Results flagged for a closer look

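Among 136 groups of 4 values examined, 8 held a larva far from the other 3 by Dixon's criterion; chance gives about 1 in 20, or 6.8. The library of restricted replicate 4 was picked out by its 62026 transcripts with a count (57586 to 58253 in the other restricted larvae) and by its score of 55.9 on the first component (-40.8 to -24.8). PmetTSAr1.1-014183 was at 0.986 CPM in restricted replicate 1 (0.317 to 0.407 in the others). PmetTSAr1.1-006826 was at 7.06 CPM in foundress-reared replicate 2 (3.27 to 3.73), and PmetTSAr1.1-001867 at 8.80 CPM in worker-reared replicate 4 (0.920 to 2.15). Among ad libitum larvae, PmetTSAr1.1-001693 was at 60.6 CPM in replicate 3 (56.7 to 57.3), PmetTSAr1.1-000005 at 54490 CPM in replicate 3 (5128 to 13318), and PmetTSAr1.1-009713 at 0.104 CPM in replicate 4 (0 in the others).

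Large counts in single larvae were also found among transcripts left out by the filter on low counts. PmetTSAr1.1-016152 had 612 counts in foundress-reared replicate 1, 5 in the other field larvae together and 0 in all laboratory larvae. PmetTSAr1.1-008176 had 0 counts in all field larvae, 1991 in restricted replicate 1 and 16 in the other laboratory larvae together. Nothing in the labels sets these larvae apart.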

How the results depend on the processing

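No called transcript changed sign in any of the 28 alternatives that tested it, which was nearly fixed by choosing the transcripts in the same libraries. Of the 24 named called transcripts, 13 lost no call, which the same choice favoured. The number of calls (356, with 106 higher and 250 lower in field larvae) moved widely. It was 1155 (482 higher, 673 lower) with DESeq2, 3952 (2003 higher, 1949 lower) with limma voom and sample weights, 1725 (850 higher, 875 lower) with a principal component as covariate, 224 (54 higher) with a stricter filter, and 94 (29 higher, 65 lower) against a 1.5-fold difference; limma voom called 165 lower. Leaving out 1 larva gave 193 to 2277 calls, 61 to 1195 higher and 132 to 1082 lower, the largest without restricted replicate 4; the cause was not tested. Field minus laboratory differences of library measures then ranged from 605779 to 1929650 total counts, -2042.54 to -1105.25 detected transcripts, -2.99869 to 1.63865 percentage points for the top 10, -2.21549 to 2.39498 for the top 100, and -0.00805501 to 0.0315608 for transcripts under the filter. With all tested transcripts, 38.34% of the variance of component 2 lay between the sides, though worker-reared and ad libitum larvae overlapped on it. At 10 CPM or more, 43.58% of transcripts had the larger SD in field larvae. With 100 and 400 transcripts per direction, the share keeping its sign was 85.71% and 70.83% (higher) and 91.58% and 75.64% (lower) from foundress-reared over ad libitum to worker-reared over restricted larvae, 55.43% and 37.73% (higher) from foundress-reared over restricted, and 67.06% and 44.66% (higher) from worker-reared over ad libitum larvae; with 100 it was 74.16% (higher) from worker-reared over restricted larvae. Without restricted replicate 4, an alternative chosen after seeing the data, it was 60.61% (higher) and 38.8% (lower) from foundress-reared over restricted larvae. No paired analysis was possible because the sides hold different larvae from different years and places and no label links a field larva to a laboratory larva. Transcripts under the filter were not tested, and the parts of year, origin, housing and food cannot be told apart in these 16 libraries.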
